A study of Zea mays with 2 samples.

Results

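Cytochrome P450 genes encode haem-containing monooxygenases, enzymes that insert an oxygen atom from molecular oxygen into small molecules. In plants most of them are anchored in the membrane of the endoplasmic reticulum and receive electrons from NADPH-cytochrome P450 reductase, in some reactions through cytochrome b5. They act in the synthesis and breakdown of hormones, of lignin precursors, of cutin and pollen wall lipids, of carotenoids and of defence compounds, and they oxidise foreign chemicals such as herbicides. The genes were taken as every row of the deposited gene tables whose family description names cytochrome P450, leaving out 4 benzoxazinoid P450 genes and any description of a flavonoid, cinnamate or allene oxide enzyme. This gave 141 of 39634 genes, and the exclusions removed 0 rows, because none of the excluded genes carries the words in its description. A P450 protein domain was listed in the deposited Pfam column for 138 of the 141.

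Leaves of maize (Zea mays, cultivar Sugar 75) were taken at the V5 stage in a series on an extract of seaweed, applied to crops as a growth promoter, under drought. The treated library came from plants given the extract and the control library from control plants, 1 library per group, each prepared from a pool of 3 independent samples and analysed with 2 technical replicates per the series text. The sources used here do not say whether both pools were under drought, and the label of the treated library calls it only the sample. Since each group had 1 library, no difference could be set against replicates and no p-value of its own is given; "higher" and "lower" describe these libraries.

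Values were FPKM, fragments per kilobase of transcript scaled to the mapped fragments of the library, as the authors deposited them, each with an interval that reflects quantification error within a library and leaves out differences between plants or pools. The ratio used was log2((treated + 1)/(control + 1)), and a gene was counted as measured where either library reached 1 FPKM, as higher at a log2 ratio of at least 1 and as lower at -1 or less. The median of the 16272 measured genes was 0.22 on this log2 scale, so ratios centred on that median gene are given beside those as deposited. By the widths of the intervals a single fragment added 1.25 times more FPKM in the treated library than in the control library, so the treated library was the shallower one. The leaf markers pep1, ssu1, RCA1 and me3, typical of mesophyll and bundle sheath cells, had 36.1 to 1262 FPKM in the treated library and 161 to 1747 FPKM in the control library. In all 4 the treated value was the lower one, and their part in the P450 values was not tested. In a bulk leaf sample, fewer cells of a type and less RNA per cell cannot be told apart.

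P450 genes were more often higher than lower in the treated leaves, and a few abundant genes supplied most of the summed difference. Of the 141 genes, 52 (36.9%) were listed at 0 in both libraries, 46 lay above 0 but below 1 FPKM, and 43 (30.5%) were measured, whereas 29.5% of all genes were listed at 0 in both and 41.1% were measured. Among the 43 measured genes 9 (20.9%) were higher, against 3.71% of all measured genes, and 1 (2.33%) was lower, against 2.52% of all. The median log2 ratio of the 43 was 0.56, with an interquartile range of 0.08 to 0.84. After centring, 4 (9.3%) were higher against 2.1% of all measured genes, 1 was lower against 3.55% of all, and the median was 0.34. In 33 of the 43 the treated value was above that of the control (76.7%, against 71.4% of all measured genes), and 29 lay above the median gene.

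The minimum of 1 FPKM let in 9 genes through the treated library alone and 2 through the control library alone. Of the 9 higher genes, 7 were at 1 FPKM or more in both libraries. Among the 32 P450 genes that reached 1 FPKM in both, 7 (21.9%) were higher and 0 were lower, while 2.89% and 1.57% of the 14279 genes of that kind were. Intervals did not overlap in 27 genes with the higher value in the treated library (62.8%, against 28.6% of all measured genes) and in 4 with the lower one, where 8.76% of all measured genes had it. In the other 12 measured genes the intervals overlapped. In the 46 genes above 0 that stayed below the minimum, the treated value was above that of the control in 24 and below it in 22.

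**Figure D1:**
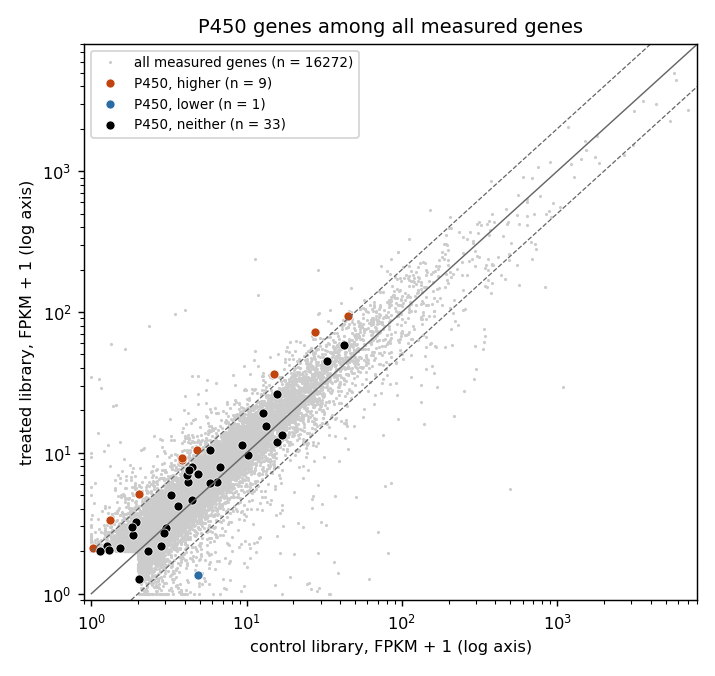
FPKM + 1 in the treated library (y axis, log scale) against FPKM + 1 in the control library (x axis, log scale) for the 16272 measured genes in grey and the 43 measured P450 genes as larger points (orange higher, blue lower, black neither). The solid line marks equal values and the dashed lines a log2 ratio of 1 and -1; 9 P450 genes lie on or above the upper line and 1 lies below the lower one.

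Summed over all members, P450 transcripts reached 526.8 FPKM in the treated library and 323.1 FPKM in the control library, a ratio of 1.63. This was 0.229% of all summed FPKM in the treated library and 0.138% in the control library. A pair of genes, GRMZM2G129860 and GRMZM2G020761, supplied 46.7% of the summed difference over the measured genes of 201.7 FPKM, and the 4 genes with the largest differences supplied 65%. Without that pair the sums were 362.4 FPKM in the treated and 252.9 FPKM in the control library, a ratio of 1.43. The 5 highest genes of each library held 57% of P450 transcripts in the treated and 49.2% in the control library. At 10 FPKM or more, where intervals reached a median of 7.34% above the value in the treated and 8.22% in the control library, 3 of 11 genes were higher (27.3%, against 6.41% of all genes at that level).

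GRMZM2G129860 had the highest level of any member in both libraries. It is annotated only as a P450 family member of the group PTHR24282, subfamily SF16, and lies on chromosome 3 at 217137201 to 217140695. The sources used here do not name the genome build of these coordinates. Its level was 93.4 FPKM (interval 88.8 to 98.1) in treated leaves and 43.8 FPKM (41.2 to 46.4) in the control library, a log2 ratio of 1.08 that became 0.80, under the threshold, after centring. GRMZM2G020761, of subfamily SF50 of the same group, on chromosome 9 at 127304157 to 127308624, had 70.9 FPKM (66.9 to 75.0) in the treated and 26.5 FPKM (24.5 to 28.4) in the control library. Its log2 ratio of 1.39 was the largest of all members on the deposited scale with a pseudocount of 1 FPKM. After centring it was 1.12, still above the threshold but below GRMZM2G171118 (1.22) and GRMZM2G100412 (1.13), which also had larger ratios with smaller pseudocounts. In the treated library it ranked second, with an interval apart from those of its neighbours in rank, and in the control library it ranked below GRMZM2G302074 and GRMZM2G056247 too.

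Below this pair, GRMZM2G302074 had 57.2 FPKM (54.2 to 60.2) in the treated and 41.2 FPKM (39.0 to 43.4) in the control library, where its interval overlapped that of GRMZM2G129860. GRMZM2G056247 had 43.9 FPKM in the treated and 31.8 FPKM in the control library. Both were nearer to the median gene, with log2 ratios of 0.46 and 0.45 that became 0.19 and 0.18 after centring. In the control library the fifth place was held by GRMZM2G012391, a CYP90A1-type gene, and in the treated library by GRMZM2G138074, a CYP98A3-type gene.

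**Figure D2:**
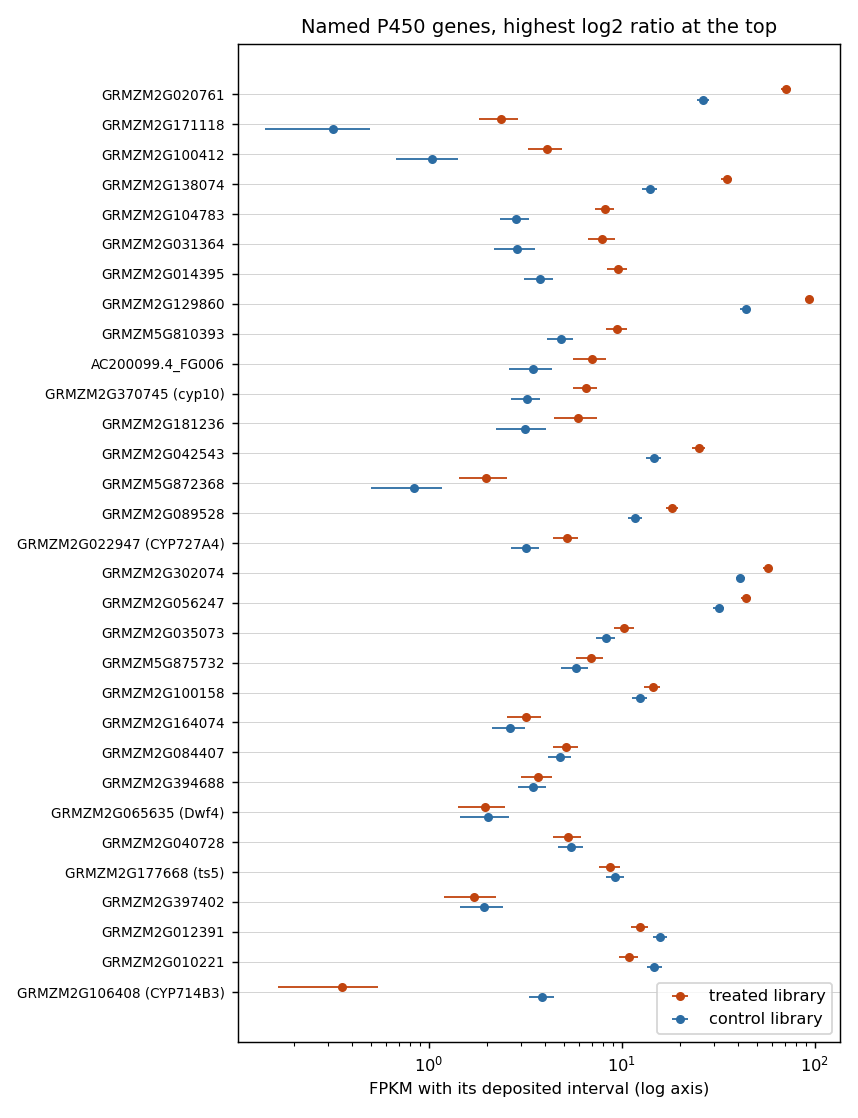
FPKM on a log axis for the 31 P450 genes chosen by level, ratio, family or symbol, sorted by log2 ratio with the largest at the top; points are the 1 treated and the 1 control library and bars are the deposited intervals. The 8 genes at the top had log2 ratios of at least 1, and GRMZM2G106408 (CYP714B3) at the bottom is the only one with -1 or less.

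The PTHR24282 group held 41 members and, as deposited, most of the higher genes. Members of it that carry a family number belong to CYP714, CYP715 and CYP734, families of the plant CYP72 clan, in which several enzymes of other species hydroxylate gibberellins or brassinosteroids. Of its 14 measured genes 5 were higher and 1 was lower, against 3.71% and 2.52% of all measured genes. The median log2 ratio was 0.78, and 12 had the higher value in the treated library, as did 71.4% of all measured genes. GRMZM2G021436, GRMZM2G102318, GRMZM2G123309, GRMZM5G864903 and GRMZM2G066784, the last named after its values were seen, reached the minimum through the treated library alone. The 1 lower gene reached it through the control library alone. The direction of all these genes was therefore set by the minimum. After centring 1 gene of the group was higher and 1 was lower, against 2.1% and 3.55% of all measured genes, with a median of 0.59. With pseudocounts of 0.1 and 0.01 FPKM 8 and 9 were higher, against 8.36% and 9.21% of all measured genes. In each case 1 was lower, against 4.04% and 4.33%. The group's sum was 248.3 FPKM in the treated and 126 FPKM in the control library, a ratio of 1.97, and it took 47.1% of P450 transcripts in the treated and 39% in the control library. The 100 members outside it had 29 measured genes, a median of 0.46 and a ratio of sums of 1.41. Of these 29 genes 4 were higher (13.8%, against 3.71% of all measured genes) and 0 were lower (against 2.52%). Whether the group differs from the other members was not tested.

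Besides GRMZM2G129860 and GRMZM2G020761, the higher genes of the group were GRMZM2G031364, GRMZM2G014395 and GRMZM5G864903. GRMZM2G031364 had 7.92 FPKM (6.67 to 9.16) in the treated and 2.86 FPKM (2.18 to 3.55) in the control library, a log2 ratio of 1.21, or 0.98 after centring. GRMZM2G014395 had 9.49 FPKM (8.33 to 10.7) in the treated and 3.76 FPKM (3.12 to 4.40) in the control library, a log2 ratio of 1.14, or 0.90 after centring. GRMZM5G864903, named after its values were seen, had 1.11 FPKM (0.72 to 1.49) in the treated and 0.027 FPKM (0 to 0.080) in the control library. It reached the minimum through the treated library alone. GRMZM2G084407 had 5.14 FPKM in the treated and 4.78 FPKM in the control library with intervals that overlapped, and its log2 ratio of 0.09 turned to -0.15 after centring. Besides CYP714B3, given next, the measured gene of the group with the lower value in the treated library was GRMZM2G031125, named after its values were seen. It had 1.18 FPKM (0.676 to 1.68) in the treated and 1.81 FPKM (1.29 to 2.33) in the control library, and these intervals overlapped. In subfamily SF50 GRMZM2G020761 stood alone, since the other 4 genes were below the minimum, the highest of them with 0.357 FPKM in the treated and 0.0224 FPKM in the control library.

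**Figure D3:**
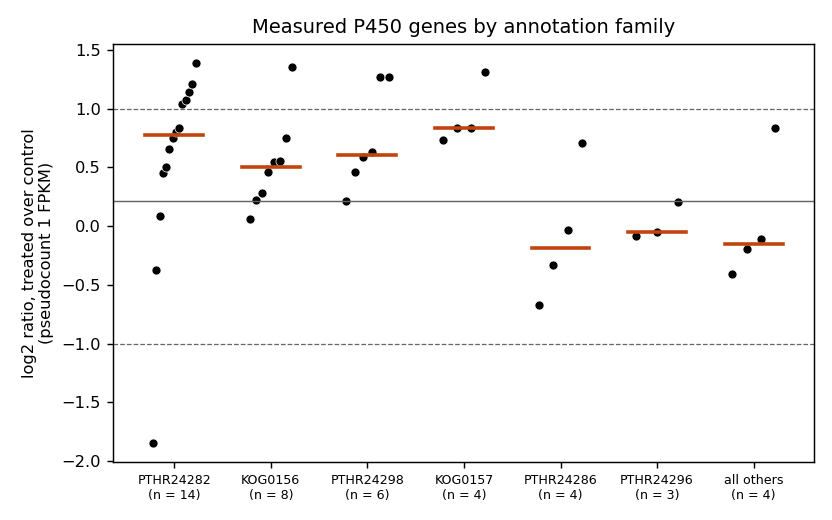
Log2 ratio of treated over control with a pseudocount of 1 FPKM (y axis) for each of the 43 measured P450 genes, by annotation group (x axis, with the number measured); short bars are group medians, the solid line is the median of all measured genes (0.22) and dashed lines mark 1 and -1. The medians of PTHR24282 (0.78) and KOG0157 (0.84) lie above the solid line and those of PTHR24286 (-0.18) and PTHR24296 (-0.05) below it.

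The one lower gene was CYP714B3 (GRMZM2G106408, chromosome 1, 54730530 to 54737067), also of PTHR24282. CYP714B enzymes of rice are gibberellin 13-hydroxylases, which convert gibberellins to forms of lower activity. Its level was 0.353 FPKM (0.164 to 0.542) in the treated and 3.86 FPKM (3.28 to 4.43) in the control library. The gene reached the minimum of 1 FPKM through the control library alone, which set its direction. The log2 ratio was -1.84 and -1.99 after centring, and the plain ratio of the FPKM values was 0.092. In the authors' deposited table it was listed as lower with a log2 fold change of -3.69, a p-value of 0.0014 and a q-value of 0.131. Of 17 other genes of gibberellin metabolism, for ent-copalyl diphosphate synthase, ent-kaurene synthase and the gibberellin oxidases, 5 were listed at 0 in both libraries, 9 lay above 0 but below 1 FPKM, and 3 were measured. Among the 3 measured genes 1 was higher and 1 was lower, against 3.71% and 2.52% of all measured genes. After centring the counts were the same, against 2.1% and 3.55% of all. The higher and the lower gene are both annotated as gibberellin 2-beta-dioxygenases, a type that inactivates gibberellins, and were named after their values were seen. GRMZM2G022679 had 5.90 FPKM in the treated and 0.923 FPKM in the control library, while GRMZM2G177104 was listed at 0 in the treated and had 1.21 FPKM in the control library. The first reached the minimum through the treated library alone and the other through the control library alone. Their directions were therefore set by it, and the value of 0 can be a missing estimate.

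The brassinosteroid P450 genes held 0 higher and 0 lower genes with the pseudocount of 1 FPKM, and 1 of each with a pseudocount of 0.1 or 0.01 FPKM. Of 7 genes in the families that build these steroid hormones or inactivate them 4 were measured, and the median log2 ratio was -0.18, or -0.41 after centring. The CYP90A1-type gene GRMZM2G012391, whose Arabidopsis relative acts in brassinosteroid synthesis, had 12.4 FPKM (11.1 to 13.6) in the treated and 15.8 FPKM (14.6 to 17.1) in the control library. Its log2 ratio was -0.33, or -0.60 after centring, and the intervals did not overlap. Dwf4 (GRMZM2G065635), a C-22 hydroxylase of the pathway by its symbol although its description names CYP708A2, had 1.95 FPKM in the treated and 2.02 FPKM in the control library. The CYP85A1-type genes, of the last steps of the pathway in Arabidopsis, went in opposite directions. GRMZM5G872368 had 1.98 FPKM (1.44 to 2.53) in the treated and 0.831 FPKM (0.500 to 1.16) in the control library. Dwarf2 (GRMZM2G103773), named after its values were seen, had 0.267 FPKM (0.0891 to 0.445) in the treated and 1.02 FPKM (0.701 to 1.33) in the control library. GRMZM5G872368 reached the minimum through the treated library alone and Dwarf2 through the control library alone, so the minimum set both directions. The log2 ratios of these genes were 0.71 and -0.67 with the pseudocount of 1 FPKM. With pseudocounts of 0.1 and 0.01 FPKM both passed the threshold, GRMZM5G872368 at 1.16 and 1.25 and Dwarf2 at -1.61 and -1.89. The authors' deposited table lists Dwarf2 as lower, with a log2 fold change of -2.18, a p-value of 0.0370 and a q-value of 0.830, not marked as significant. Both copies named CYP734A7, an inactivating type, were listed at 0 in both libraries. Among 14 genes of brassinosteroid synthesis and signalling that are no P450, 5 were measured and 0 were higher or lower, with a median of 0.41, or 0.14 after centring.

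The few members that a family number or symbol placed in other hormone routes showed small differences or no measurable level. Members without either were not assigned to a hormone route, so hormone P450 genes as a class were not covered. The maize gene ts5 (GRMZM2G177668, CYP94B1-related), whose enzyme hydroxylates and so inactivates the jasmonate hormone conjugate, had 8.69 FPKM (7.58 to 9.80) in the treated and 9.25 FPKM (8.25 to 10.3) in the control library. Its relative GRMZM2G164074 had 3.16 FPKM in the treated and 2.62 FPKM in the control library, a log2 ratio of 0.20 that became -0.01 after centring. Intervals overlapped for both. MAX1b (GRMZM2G023952), of strigolactone synthesis, had 0.0386 FPKM in the treated and 0.0615 FPKM in the control library, below the minimum. No member carried a family number of the abscisic acid hydroxylases (CYP707), of cytokinin hydroxylases (CYP735) or of sterol enzymes (CYP51 and CYP710). Among 9 genes of abscisic acid synthesis, 5 were measured, with a median of 0.31, or 0.03 after centring. Of these 1 was higher and 0 were lower, against 3.71% and 2.52% of all measured genes. The higher one, GRMZM2G002315, was named after its values were seen. It was listed at 0 in the control library, against 1.56 FPKM (0.286 to 2.83) in treated leaves. Only the treated library brought it to the minimum, which set its direction, and the value of 0 can be a missing estimate.

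The phenylpropanoid route, which leads to lignin, had 1 higher P450 gene as deposited, among the most abundant members. The CYP98A3-type gene GRMZM2G138074 on chromosome 3 (187710604 to 187713565), whose Arabidopsis relative hydroxylates coumaroyl esters on the way to lignin, had 35.0 FPKM (32.8 to 37.3) in the treated and 14.0 FPKM (12.8 to 15.2) in the control library. Its log2 ratio was 1.27 and lay just under the threshold after centring, at 0.998. A second CYP98A3-type gene, GRMZM2G140817, named after its values were seen, had 4.05 FPKM (3.37 to 4.73) in the treated and 2.26 FPKM (1.80 to 2.72) in the control library, a log2 ratio of 0.63. GRMZM2G100158, related to the Arabidopsis ferulate 5-hydroxylase CYP84A1, had 14.5 FPKM (13.1 to 15.8) in the treated and 12.4 FPKM (11.2 to 13.5) in the control library. These intervals overlapped, and the log2 ratio of 0.21 became -0.05 after centring. Of the 5 members in these families 3 were measured, and after centring 0 were higher.

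The CYP78 family, whose Arabidopsis members promote the growth of organs and seeds, had 4 members and 1 higher gene. GRMZM2G104783 (chromosome 4, 215580164 to 215582701), described as CYP78A6-related, had 8.19 FPKM (7.26 to 9.11) in the treated and 2.82 FPKM (2.34 to 3.29) in the control library. Its log2 ratio was 1.27, and 1.04 after centring. CYP78A53 (GRMZM2G092823), named after its values were seen, had 1.10 FPKM (0.752 to 1.45) in the treated and 0.525 FPKM (0.315 to 0.736) in the control library. Only the treated library brought it to the minimum, which set its direction. The other two were below the minimum. GRMZM2G089528, of the same annotation group but without a family number, had 18.2 FPKM (16.8 to 19.6) in the treated and 11.8 FPKM (10.8 to 12.8) in the control library, a log2 ratio of 0.59, or 0.33 after centring.

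No member with a family number of the lipid or carotenoid families given here passed the threshold in either direction. The 102 members without a family number could not be assigned to these routes. In the families of fatty acid hydroxylases (CYP77, CYP86, CYP94 and CYP704), which include the CYP94 genes given above, 2 of 9 genes were measured and 0 were higher or lower. GRMZM2G040728 belongs to the annotation group of the CYP86, CYP94 and CYP704 members. Its level was 5.25 FPKM (4.38 to 6.11) in the treated and 5.47 FPKM (4.67 to 6.26) in the control library. The pollen wall gene ms26 (GRMZM2G091822) had 0.148 FPKM in the treated and 0.239 FPKM in the control library, below the minimum. The chloroplast gene GRMZM2G010221, annotated as CYP97B3, of a family whose Arabidopsis members hydroxylate carotenes to xanthophylls, had 10.9 FPKM (9.66 to 12.1) in the treated and 14.8 FPKM (13.4 to 16.1) in the control library. Its intervals did not overlap, and its log2 ratio was -0.41, or -0.67 after centring.

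Most other members are described only by broad eukaryotic groups. Of the 25 genes of the CYP2-type group KOG0156, 8 were measured, and all 8 had the higher value in the treated library, as did 71.4% of all measured genes. By the threshold 1 was higher (12.5%, against 3.71% of all measured genes), and the median log2 ratio was 0.50, or 0.25 after centring. GRMZM2G171118 was the higher one, at 2.36 FPKM (1.82 to 2.90) in the treated and 0.316 FPKM (0.141 to 0.491) in the control library, a log2 ratio of 1.35, or 1.22 after centring. It reached the minimum through the treated library alone. At the other end of the group, GRMZM2G394688 had 3.66 FPKM in the treated and 3.46 FPKM in the control library, and its log2 ratio of 0.06 became -0.16 after centring. The log2 ratio of GRMZM5G875732, 0.22, also turned negative after centring, at -0.02. CYP727A4 (GRMZM2G022947) had 5.16 FPKM (4.41 to 5.91) in the treated and 3.20 FPKM (2.67 to 3.72) in the control library, a log2 ratio of 0.56, or 0.33 after centring.

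The CYP4-type group KOG0157 had 19 members and 4 measured genes, all at the higher value in the treated library with intervals that did not overlap. Of all measured genes 71.4% had the higher value in the treated library, 28.6% had it with intervals apart, and 3.71% were higher by the threshold. GRMZM2G100412 had 4.07 FPKM (3.26 to 4.88) in the treated and 1.04 FPKM (0.670 to 1.40) in the control library, a log2 ratio of 1.32, or 1.13 after centring, and was the 1 higher gene. A second, GRMZM2G132478, passed the threshold with a pseudocount of 0.1 or 0.01 FPKM and was named after its values were seen, at 1.02 FPKM (0.671 to 1.36) in the treated and 0.132 FPKM (0.0243 to 0.240) in the control library. It reached the minimum through the treated library alone, which set its direction. GRMZM2G042543 had 25.0 FPKM (23.2 to 26.9) in the treated and 14.6 FPKM (13.4 to 15.9) in the control library, a log2 ratio of 0.73, or 0.47 after centring. GRMZM5G810393 had 9.44 FPKM (8.23 to 10.7) in the treated and 4.83 FPKM (4.07 to 5.59) in the control library, and its log2 ratio of 0.84 was the largest below the threshold.

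Among genes outside these groups, AC200099.4_FG006, described by the domain alone, had 6.96 FPKM (5.60 to 8.32) in the treated and 3.45 FPKM (2.59 to 4.31) in the control library, a log2 ratio of 0.84, or 0.61 after centring. GRMZM2G397402, of the CYP3-type group KOG0158, had 1.71 FPKM in the treated and 1.93 FPKM in the control library with intervals that overlapped. Neither passed the threshold, except AC200099.4_FG006 with a pseudocount of 0.01 FPKM, at 1.01. The 102 members without a family number had 29 measured genes with 7 higher and 0 lower and a median of 0.74, or 0.52 after centring. The 39 members with one had 14 measured genes with 2 higher and 1 lower and a median of 0.21, or -0.03 after centring. Of all measured genes 3.71% were higher and 2.52% lower. Most genes that reached the minimum through the treated library alone had no family number. Those that reached it through the control library alone had one. The difference between these sets was not tested.

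Many P450 genes lie beside one another on the chromosomes, which members of a duplicated family often do. Members were found on all 10 chromosomes, and 30 of them lay within 100 kb of another, in 12 clusters. Of these 30 genes 9 were measured, all 9 with the higher value in the treated library, as in 71.4% of all measured genes. By the threshold 3 were higher (33.3%, against 3.71% of all measured genes), and 8 lay above the median gene. After centring the count of higher genes was 1, against 2.1% of all. It was 5 and 6 with pseudocounts of 0.1 and 0.01 FPKM, against 8.36% and 9.21%. GRMZM2G102318, GRMZM2G021436 and GRMZM2G123309 reached the minimum through the treated library alone, so their direction was set by it. A cluster on chromosome 3, at 216986018 to 217140695, held cyp10 (GRMZM2G370745), GRMZM2G176943, GRMZM2G014395 and GRMZM2G129860 in 155 kb. Of its genes 3 were measured, and cyp10 had 6.53 FPKM (5.60 to 7.46) in the treated and 3.22 FPKM (2.67 to 3.77) in the control library, while GRMZM2G176943 was listed at 0 in both. The cluster's sum was 109 FPKM in the treated and 50.8 FPKM in the control library.

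A second cluster of 168 kb on chromosome 8, at 145601597 to 145769811, held 5 genes, 4 of them measured and 0 of them higher by the threshold, or 2 with a pseudocount of 0.1 or 0.01 FPKM. GRMZM2G056247 made up most of its sum of 48.8 FPKM in the treated and 33.9 FPKM in the control library. Its neighbours GRMZM2G102318, GRMZM2G021436 and GRMZM2G123309 had 1.05, 2.25 and 1.62 FPKM in the treated and 0.299, 0.938 and 0.850 FPKM in the control library, and GRMZM2G021310 was listed at 0 in both. The only pair of subfamily SF16 was split between these clusters, with GRMZM2G129860 on chromosome 3 and GRMZM2G056247 on chromosome 8. On chromosome 9 GRMZM2G148969, the neighbour of GRMZM2G020761 within 15.1 kb, was listed at 0 in both libraries. How the authors' quantification shared the reads of near-identical copies is not stated in the sources used here, so values of single genes in clusters are less certain. GRMZM2G129860 matched the same RefSeq gene as GRMZM2G560358, a row listed at 0 in both libraries.

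**Figure D4:**
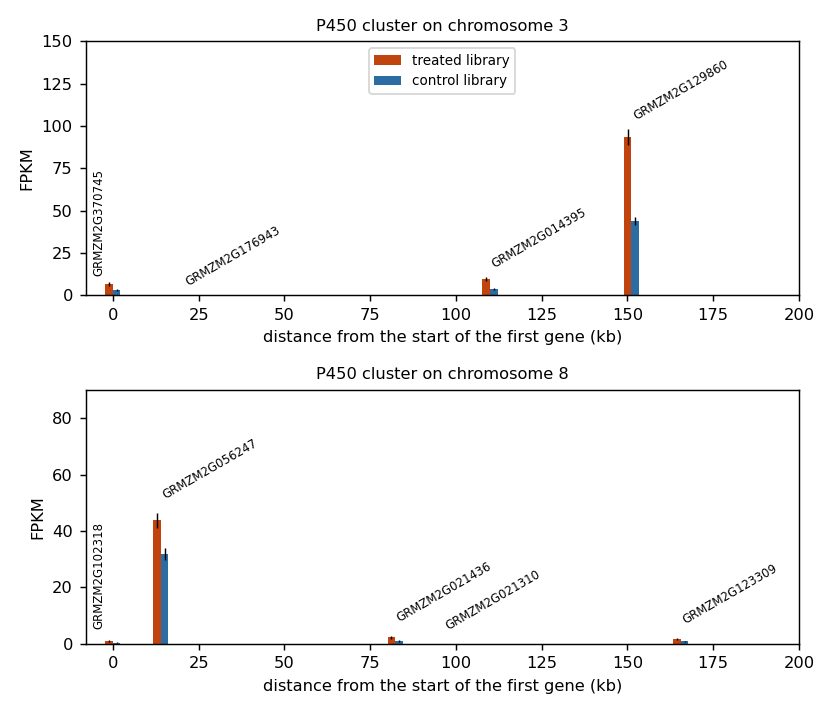
FPKM (y axis) of the P450 genes in the clusters on chromosome 3 and chromosome 8 by distance from the start of the first gene in kb (x axis); orange bars are the treated and blue bars the control library, 1 library each, with the deposited intervals. GRMZM2G129860 (93.4 against 43.8 FPKM) and GRMZM2G056247 (43.9 against 31.8 FPKM) stand above their neighbours, and GRMZM2G176943 and GRMZM2G021310 are listed at 0.

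The partners that pass electrons to P450 enzymes did not move as one. Of 21 electron donor genes 16 were measured, and the median log2 ratio was 0.50, or 0.24 after centring. Among them 1 was higher (6.25%, against 3.71% of all measured genes) and 0 were lower (against 2.52%). The NADPH-cytochrome P450 reductase gene GRMZM2G086489 had 27.4 FPKM in the treated and 29.2 FPKM in the control library with intervals that overlapped. The second reductase gene, GRMZM2G104294, had 13.7 FPKM in the treated and 7.13 FPKM in the control library, a log2 ratio of 0.85, or 0.60 after centring, with intervals apart. All 7 measured cytochrome b5 genes of 8 had the higher value in the treated library, as did 71.4% of all measured genes. Their median was 0.66, or 0.42 after centring. GRMZM2G135385, the 1 higher donor gene, had 12.1 FPKM in the treated and 3.04 FPKM in the control library, a log2 ratio of 1.70, or 1.46 after centring.

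The most abundant cytochrome b5 gene, GRMZM2G028986, had 56.3 FPKM in the treated and 34.7 FPKM in the control library. GRMZM5G829554 had 11.0 FPKM in the treated and 6.95 FPKM in the control library, and GRMZM2G074169 had 13.2 FPKM in the treated and 10.4 FPKM in the control library with intervals that overlapped. Among 11 cytochrome b5 reductase genes 7 were measured and 0 were higher or lower, with a median of 0.26, or 0.01 after centring. Those at 10 FPKM or more were GRMZM2G359127 (15.9 FPKM treated, 13.0 control), GRMZM2G152438 (14.0 treated, 10.3 control) and GRMZM2G133213 (11.5 treated, 7.17 control). Haem synthesis, which supplies the prosthetic group, had 17 measured genes of 23 with 0 higher or lower and a median of 0.25, or 0.07 after centring.

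For comparison, 3.71% of all measured genes were higher as deposited and 2.1% after centring, and 2.52% and 3.55% were lower. The 138 other genes with a P450 domain in the deposited Pfam column, whose descriptions do not name cytochrome P450, had 52 measured genes with 8 higher (15.4%) and 3 lower and a median log2 ratio of 0.29. After centring they had 4 higher (7.69%) and 3 lower and a median of 0.08. Glutathione S-transferases, which conjugate oxidised compounds, had 7 higher (15.9%) and 0 lower of 44 measured genes, and 6 higher (13.6%) and 0 lower after centring. UDP-glycosyltransferases, which attach sugars to them, had 3 higher (5.17%) and 1 lower of 58, near the share of all genes, and 1 higher (1.72%) and 2 lower after centring. The 4 benzoxazinoid P450 genes, which build the defence compounds typical of maize, lay on the other side. All 4 had the lower value in the treated library with intervals that did not overlap, against 8.76% of all measured genes. The median was -0.57, or -0.85 after centring. By the threshold 0 were higher and 1 (25%) was lower, also after centring. It was GRMZM2G085661, named after its values were seen. The gene reached the minimum through the control library alone, which set its direction. No difference between these sets was tested.

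The authors' own comparison of the libraries listed 8 P450 genes. Their deposited tables with p-values up to 0.05 held 6 members among 380 genes listed as higher (4.26% of the members, against 0.959% of all genes) and 2 among 631 listed as lower (1.42%, against 1.59%). None of these 8 was marked as significant there. Only 36 higher and 86 lower genes of 39634 were, so the absence of members among them says little about P450 genes. In the authors' deposited table GRMZM2G171118 had a log2 fold change of 2.61 with a p-value of 0.0075 and a q-value of 0.374. GRMZM2G100412 had a log2 fold change of 1.72 with a p-value of 0.0209 and GRMZM2G104783 one of 1.23 with a p-value of 0.0253 in the authors' deposited table. The abundant genes GRMZM2G129860, GRMZM2G020761 and GRMZM2G138074 were not in these tables. With a single library on each side, these p-values describe the libraries rather than the conditions.

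A membrane term stood in the deposited gene ontology column for 39% of them, against 19.3% of all genes. Names were looked up in RefSeq (assembly Zm-B73-REFERENCE-NAM-5.0), where 104 of the 141 matched a gene, and 12 had a symbol from it or from the deposited tables.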

How the data were processed

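Leaf RNA of 2 pools was sequenced, 1 treated and 1 control library, on Illumina protocols per the labels' protocols. Cufflinks 2.2.1 and Cuffdiff, Bowtie2 2.2.6 with TopHat2 2.1.0, cutadapt 1.8.1 and Picard 1.115 are named in the submitters' processing notes, without their roles. No genome build is stated in the sources used here. Per the file headers, the authors deposited FPKM values with interval bounds and a status for 39634 genes per library, and tables of their own comparison with log2 fold changes, p-values and q-values. These are the authors' values; 8 FPKM columns in those tables were left aside, since they carry no name that a label gives.

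Members, families and partner lists were taken from the deposited descriptions, and were chosen with earlier results of these data known. Ratios, medians and counts were computed over the whole table with Python 3.11.15, pandas 2.3.3 and numpy 2.4.6, with a pseudocount of 1 FPKM and a minimum of 1 FPKM, and checked on simulated data. The pseudocount understates the difference of low genes. Centring scaled both libraries so that the median log2 ratio of all measured genes was 0. FPKM keep no library totals. Depth was read from the intervals of 2066 genes whose implied fragment number was below 5 and whole within 0.01 in both libraries. An exact 0 can be a missing estimate, and no plain ratio was taken against it.

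Genes named were, among members that reached 2 FPKM in either library, with status OK in both, the 12 largest and the 12 lowest log2 ratios. The rule adds the 8 highest means, the highest member of each family or list, members with a symbol at 5 FPKM or more, donor genes at 10 FPKM or more, members in the authors' lists with p-values below 0.01, and neighbours within 100 kb. Alternatives were pseudocounts of 0.1 and 0.01, no minimum and one of 5 FPKM, centring, intervals that do not overlap, and leaving out the 1 member described as a reductase.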

Additional observations from a re-analysis of the deposited data

How the results depend on the processing

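The count of 9 higher P450 genes was 14 with a pseudocount of 0.1 FPKM and 17 with 0.01, and 4 after median centring, against 8.36%, 9.21% and 2.1% of all measured genes. It stayed at 9 with no minimum (6.38%, against 1.52% of all genes), with intervals that do not overlap and without the member described as a reductase. At a minimum of 5 FPKM it was 6 of 24 (25%, against 5.19% of all). The 1 lower gene became 2 with either smaller pseudocount and 0 at the minimum of 5 FPKM, which CYP714B3 does not reach. Of all measured genes 4.04% and 4.33% were lower with pseudocounts of 0.1 and 0.01 FPKM, and 3.14% at the minimum of 5 FPKM. The median log2 ratio of 0.56 was 0.77 with a pseudocount of 0.1 FPKM, 0.77 with 0.01, 0.57 at the minimum of 5 FPKM, 0.34 after centring and 0.000 with no minimum, where genes listed at 0 in both libraries enter. The median of all genes was 0.27 and 0.28 with pseudocounts of 0.1 and 0.01 FPKM. It was 0.27 at the minimum of 5 FPKM and 0.000 with no minimum. With pseudocounts of 0.1 and 0.01 FPKM, the 4 higher genes outside the PTHR24282 group became 6 and 8, and the 7 among members without a family number became 11 and 13. Of the 31 genes named by the rule, 9 were past the threshold. All 9 remained so with the smaller pseudocounts and 5 of 9 after centring, and centring changed the sign of 5 of the 31, none of which had been past the threshold.

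No paired analysis was possible because each group has 1 library. Leaving out a replicate was not possible for the same reason. The intervals cover quantification error only: between 1 and 10 FPKM they reached a median of 19.9% above the value in the treated and 18.3% in the control library, so that small differences of low genes were not detectable at this depth.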
